A study of Oryza sativa with 6 samples.

Results

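The comparison described here set rice seedlings overexpressing OsUBA (OX) against wild-type seedlings of cultivar Nipponbare (WT), across all genes on an Affymetrix rice array. It rests on 2 OX and 2 WT arrays out of 6 in the series. Probe sets, the groups of short probes that measure one transcript, were members if their log2 expression value reached 5 on at least 2 of these 4 arrays and they were neither control nor reporter probe sets. Of 57194 probe sets 37067 met this rule, representing 16302 genes, and 20127 did not. At its edge, the probe set of LOC4331857 was kept with values of 4.72 and 5.0007 in OX and 4.40 and 5.11 in WT. The probe set of LOC9270168 was left out with 4.998 and 4.21 in OX, against 5.6956 and 3.21 in WT.

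The name UBA stands for the ubiquitin-associated domain, a short protein fold that binds ubiquitin. Ubiquitin is a small protein that cells attach to other proteins, most often to mark them for breakdown by the proteasome. Proteins with a UBA domain include receptors that carry tagged proteins to the proteasome. A seedling at this stage holds expanding leaves, in which cellulose synthases in the plasma membrane lay down the cell wall, guided by microtubules built of tubulin, while sucrose supplies the UDP-sugars from which wall polysaccharides are made.

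Both OX and WT seedlings were untreated, were grown at 28 °C and were taken at the 4-leaf stage. Each group had 2 biological replicates, and RNA of the whole seedling was labelled from 6 µg of total RNA. The third group, plants with OsUBA RNA interference (RNAi), entered the statistical model only for its spread between replicates. The labels give neither the promoter that drives OsUBA nor the number of transgenic lines, and they describe no plants transformed without an OsUBA construct. They also give no locus for OsUBA, so the level of the overexpressed gene itself was not analysed here.

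The array median lay between 5.67 and 5.92 on the log2 scale, and each array had 34231 to 36277 probe sets at log2 5 or brighter. Across probe sets the 2 OX arrays correlated at r = 0.923, the 2 WT arrays at 0.920, and OX with WT arrays at 0.892 to 0.915. Of 64 reporter probe sets, which match transgene and vector parts, 63 had OX means under 7 (the highest 5.89), and 1 reached 13.96 and 14.41 in OX, against 3.12 and 2.97 in WT. Markers of photosynthetic tissue were mostly bright in both groups. CAB2R, a chlorophyll-binding protein of the light-harvesting complex, had 15.61 and 15.70 in OX and 15.84 and 15.69 in WT. RBCS1 was dim and lower on both OX arrays, with 3.97 and 4.96 in OX and 5.61 and 5.37 in WT. PORA lay higher on both OX arrays (13.62 and 12.94, against 12.24 and 9.97 in WT), and the other markers overlapped. Of 4 measured root markers, 1 lay higher on both OX arrays, 1 lower on both and 2 overlapped, and their summed linear signal was 769 and 1257 in OX and 851 and 1068 in WT. Since each array measured whole seedlings, fewer cells of a type and less RNA per cell cannot be told apart.

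Most called probe sets were higher in OX. In the limma fit with an intensity trend, whose prior spread follows brightness, 129 of 37067 probe sets passed an adjusted p of 0.05 (0.348%): 125 were higher in OX (0.337%) and 4 lower (0.0108%). The 125 higher probe sets held 91 genes with a locus identifier, and 27 of them had no single gene in the annotation. The 4 lower ones had no gene. Over all probe sets the lean depended on the measure: 17.4% had both OX arrays above both WT arrays and 25% had both below. At a change of 2-fold or more, these shares were 7.05% and 4.52%. The count depends on the kind of fit: without a trend limma called 0 probe sets (0%), and its smallest adjusted p was 0.0867. An unadjusted p under 0.05 was reached by 3157 probe sets in that fit (8.52%) and by 3717 in the fit with the trend (10%), of which 5.54% of all probe sets were higher and 4.49% lower in OX. Without OX replicate 1 the trend fit called 0 probe sets as well (2133 at an unadjusted p under 0.05), and without WT replicates 1 and 2 it called 16 and 22. In these fits the one array left in a group was assumed to vary like the other groups. All p values below are Benjamini-Hochberg values from the trend fit unless stated, and they measure only the spread between these biological replicates.

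The higher probe sets changed by a median of 3.12 on the log2 scale (range 1.14 to 10.6). Of the 125, 113 changed 4-fold or more and 37 changed 16-fold or more. Their median level was 11.57 in OX and 7.75 in WT, and 51 of them had an OX mean of 12 or more. In 17 the WT mean lay under log2 5, the floor below which folds were not measured but counted from the floor as lower bounds. OX replicate 1 lay above OX replicate 2 in 98 of the 125, against 46.6% of all probe sets, so the first OX array carried most of the larger values.

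**Figure D1:**
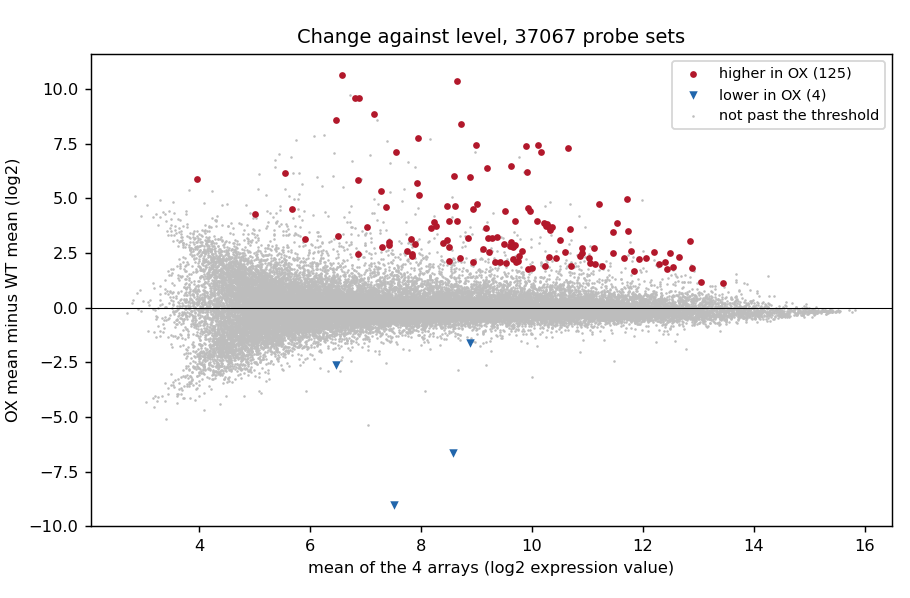
The difference between the OX mean and the WT mean of each probe set (vertical axis, log2) is plotted against its mean over the 4 arrays (horizontal axis, log2 expression value). Red points are the 125 probe sets higher in OX, blue triangles the 4 lower ones and grey points those not past an adjusted p of 0.05; red points run from 1.14 to 10.6 and lie mostly above a mean of 6.

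Genes of cell-wall polysaccharide synthesis were among the rises. CESA1 (LOC4337958), a catalytic subunit of the cellulose synthase complex of primary walls, had 13.76 and 13.51 in OX, against 12.50 and 12.45 in WT. All values of OX lay above those of WT, and the gene was 2.23-fold higher (log2 change 1.15 ± 0.17 SE, adjusted p = 0.0498). This was the call nearest to the threshold among genes with a name, and it was lost when any of the 6 arrays was left out (adjusted p 0.0528 to 0.432). Its second probe set did not pass (1.82 ± 0.36, adjusted p = 0.135). Of the 9 cellulose synthases, all measured, 1 was called, 8 had both OX arrays above both WT arrays and 9 had a positive change, with a median of 1.08. Over all 16302 genes, with 1 probe set each, the median was -0.04, 0.54% were called higher, 20.7% had both OX arrays above both WT arrays and 45.8% had a positive change. At an unadjusted p under 0.05, 7.88% of all genes were higher and 4.48% lower. Without OX replicate 1 CESA1 was 2.04-fold higher. In CESA4, CESA6 and CESA7 OX replicate 2 lay only a little above the higher WT array. It had 11.89, 11.01 and 12.19 in these genes, against 11.77, 10.93 and 12.01 in that array.

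The other cellulose synthases did not pass. CESA3 (LOC4343049), of the primary-wall complex, had 14.51 and 14.32 in OX, against 13.33 and 13.35 in WT (log2 change 1.08 ± 0.31, adjusted p = 0.329). CESA8 (LOC4342699), also of that complex, had 13.72 and 13.28 in OX, against 11.95 and 12.11 in WT (1.47 ± 0.28, adjusted p = 0.121). CESA5 (LOC4334710) had 11.64 and 11.01 in OX, against 9.58 and 9.72 in WT (1.68 ± 0.25, adjusted p = 0.0601). The groups of these 3 did not overlap. The subunits of secondary walls differed by less relative to their spread: CESA4, CESA7 and CESA9 had log2 changes of 0.53 ± 0.46, 0.76 ± 0.97 and 0.65 ± 0.67, and CESA9 overlapped between the groups. CESA2 and CESA6 had log2 changes of 3.07 ± 1.25, from a WT mean under the floor of log2 5, and 0.61 ± 0.31.

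UDP-sugar supply held 2 of the called genes, one of them coding for an enzyme that splits sucrose into fructose and UDP-glucose (a sucrose synthase, SUS1). The other, UGD3 (LOC4334169), codes for the enzyme that oxidises UDP-glucose to UDP-glucuronic acid. It had 12.14 and 12.18 in OX, against 9.58 and 10.19 in WT. UGD3 was 4.86-fold higher, with OX replicates closer to each other than WT replicates (log2 change 2.28 ± 0.24, adjusted p = 0.018). SUS1 (LOC4333062) had 12.49 and 10.87 in OX, against 7.94 and 7.50 in WT. SUS1 was 15.7-fold higher (3.97 ± 0.53, adjusted p = 0.0375), and the fold was 8.91 without OX replicate 1 and 27.5 without OX replicate 2. A second probe set of SUS1 moved in the same direction without passing (3.47 ± 0.58, adjusted p = 0.0775). Of 12 measured sucrose synthase and UDP-sugar genes 10 had a positive change, with a median of 0.52. Both OX arrays lay above both WT arrays in 5 and below in 1. Over all genes these shares were 45.8%, 20.7% and 25.9%, and 0.54% were called. UGD4 (LOC4352146), another UDP-glucose dehydrogenase, had 12.05 and 11.80 in OX, against 10.10 and 10.45 in WT (1.65 ± 0.38, adjusted p = 0.214). The epimerase gene UGE-3 (LOC4347638), whose enzyme class interconverts UDP-glucose and UDP-galactose, lay the other way, at 9.63 and 10.29 in OX and 10.66 and 10.76 in WT (-0.75 ± 0.26, adjusted p = 0.41).

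Other wall genes were called one at a time. LAC20 (LOC4351006), of the laccases, copper oxidases that couple lignin precursors, had 10.99 and 10.26 in OX, against 6.46 and 6.89 in WT. It was 15.5-fold higher with no overlap (log2 change 3.95 ± 0.44, adjusted p = 0.0207). LAC10 (LOC4332400) was the nearest other laccase, at 10.18 and 8.86 in OX and 6.18 and 6.63 in WT (3.12 ± 0.47, adjusted p = 0.0572). LAC7 (LOC4324802) had 9.86 and 10.67 in OX, against 14.16 and 11.21 in WT, so the family did not move as one, and WT replicate 1 stood far above the other arrays (-2.43 ± 1.17, adjusted p = 0.542). Of 9 laccases and cellulose synthases of secondary walls taken as markers of vessels and fibres, 4 lay higher on both OX arrays and 2 lower, and their summed linear signal was 22580 and 14910 in OX and 28240 and 12380 in WT. Whether a change in such cells has a part in the rise of LAC20 was not tested.

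Among 8 xylan glycosyltransferases, enzymes that build the main hemicellulose of grass walls, 0 were called in limma, against 0.54% of all genes. At an unadjusted p under 0.05, 1 was higher, against 7.88% of all genes. That gene, GT43A (LOC4337665), had 11.91 and 11.53 in OX, against 10.13 and 10.40 in WT (log2 change 1.46 ± 0.21, adjusted p = 0.0527). Of 17 measured cellulose synthase-like genes, 10 had a positive change and the median was 0.15. CSLF6 (LOC4344719), which makes the mixed-linkage glucan of grass walls, had 13.14 and 12.65 in OX, against 11.19 and 11.26 in WT (1.67 ± 0.30, adjusted p = 0.101). CslF8 (LOC4343552) had 9.09 and 7.42 in OX, against 4.18 and 2.40 in WT, or at least 9.53-fold higher without passing (adjusted p = 0.165). CSLF2 (LOC4343553) lay the other way, with 4.58 and 3.96 in OX, against 6.76 and 5.37 in WT (at least 2.09-fold lower, adjusted p = 0.566). Expansins, proteins that loosen walls, had a median of 0.68 over 20 measured genes, with 16 positive. Only 5 of these 20 had both OX arrays above both WT arrays, and without OX replicate 1 the median was 0.09. Over all genes 20.7% had both OX arrays above both WT arrays and 45.8% had a positive change. Monolignol genes, which make the precursors of lignin, were evenly split, with 10 of 19 positive and a median of 0.02.

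Tubulins and kinesins leaned upward without a call. All 10 tubulins were measured, and 9 had both OX arrays above both WT arrays, with a median of 0.87. Limma called 0 of them, and 7 had an unadjusted p under 0.05, all higher. Over all genes 20.7% had both OX arrays above both WT arrays, and 7.88% were higher at that unadjusted p. TUB4 (LOC4327550), a beta-tubulin, had 12.90 and 11.88 in OX, against 10.26 and 10.30 in WT (log2 change 2.11 ± 0.32, adjusted p = 0.0568). TUB5 (LOC4328420) had 13.75 and 13.06 in OX, against 11.95 and 11.996 in WT (1.43 ± 0.23, adjusted p = 0.0695). TubA (LOC4350197), an alpha-tubulin, had 13.95 and 13.63 in OX, against 12.61 and 13.01 in WT (0.99 ± 0.19, adjusted p = 0.132). TUB6 was the exception, with 13.05 and 12.25 in OX overlapping 12.73 and 12.59 in WT.

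Of 30 measured kinesins, motor proteins that move along microtubules, 22 had a positive change, 17 had both OX arrays above both WT arrays and 2 both below, with a median of 0.51. Limma called 0, and 7 higher and 1 lower had an unadjusted p under 0.05. The shares of all genes were 20.7% both above, 25.9% both below, and 7.88% higher and 4.48% lower at that unadjusted p. KIN7C (LOC4330142) had the smallest p, with 10.30 and 10.06 in OX, against 9.04 and 9.53 in WT (log2 change 0.89 ± 0.24, adjusted p = 0.291). KIN14C and KIN5C followed, with log2 changes of 1.01 ± 0.31 and 1.17 ± 0.38 (adjusted p = 0.355 and 0.385). The markers of dividing cells hold these kinesins together with mitotic cyclins, and their summed linear signal was 27620 and 24070 in OX and 24410 and 21690 in WT. Cyclins and cyclin-dependent kinases on their own did not lean upward: of 32 measured, 9 lay higher on both OX arrays and 12 lower, with a median of -0.14. CYCB1-1 (LOC4327547), a mitotic cyclin, had 6.94 and 6.51 in OX, against 4.86 and 4.90 in WT (adjusted p = 0.36). The 5 measured histones were all negative, at a median of -0.31, with 4 lower on both OX arrays. A part of dividing cells in the kinesin values was not tested.

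ATP-citrate lyase and lipid transfer genes mostly had higher values in OX. ACLA-2 (LOC9272295), a subunit of ATP-citrate lyase, which makes acetyl-CoA outside the mitochondrion, had 13.28 and 12.81 in OX, against 11.10 and 10.50 in WT. It rose 4.73-fold (log2 change 2.24 ± 0.26, adjusted p = 0.0239). Other lyase subunits differed by less: ACLB-1 (LOC4325777) by 0.74 ± 0.21 and ACLA-3 (LOC4352549) by 0.58 ± 0.19, with adjusted p values of 0.326 and 0.388. Of 7 measured genes of these families, 6 had both OX arrays above both WT arrays and 0 both below, and the median was 0.58. Over all genes these shares were 20.7% and 25.9%. LTP110-A (LOC4349601), a lipid transfer protein, had 13.62 and 8.54 in OX, against 7.86 and 4.20 in WT, so that the replicates of each group lay far apart (5.05 ± 1.74, adjusted p = 0.408).

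The remaining called genes with a name belong to separate pathways. AT15 (LOC4347960), named as an acyltransferase, had 11.79 and 10.95 in OX, against 6.18 and 7.11 in WT, a 26.4-fold rise (log2 change 4.72 ± 0.43, adjusted p = 0.0105). HOS66 (LOC4331449), a homeobox gene and thus of a class of transcription factors, had 11.79 and 10.59 in OX, against 6.33 and 7.01 in WT. It rose 22.96-fold (4.52 ± 0.47, adjusted p = 0.0169), or 15.2-fold without OX replicate 1 and 34.7-fold without OX replicate 2. It was the only one of 38 measured homeobox genes to be called, and the median of that list was 0.02, with 20 positive and 18 negative. METK3 (LOC4325163), an S-adenosylmethionine synthase that makes the cell's methyl donor, had 8.62 and 8.73 in OX, against 5.68 and 6.11 in WT (6.88-fold, 2.78 ± 0.34, adjusted p = 0.0275). ZIP5 (LOC4339082), of a family of zinc transporters, had 9.35 and 8.76 in OX, against 6.55 and 6.69 in WT (5.40-fold, 2.43 ± 0.34, adjusted p = 0.0459). METK3 was the only called gene among 6 one-carbon and methionine genes. ZIP5 was the only called one among 46 metal transporter and related genes, nicotianamine synthases among them, whose median was 0.02. Over all genes 0.54% were called.

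ADIPOR1 and ta4 were each called by every probe set kept for them. ADIPOR1 (LOC4341641), named after the animal adiponectin receptors, had 11.25 and 10.99 in OX, against 8.07 and 8.14 in WT (8.06-fold, log2 change 3.01 ± 0.21, adjusted p = 0.00436). Its other 2 probe sets changed by 2.48 ± 0.22 and 2.31 ± 0.20, both with an adjusted p of 0.00893. The gene ta4 (LOC4329846) had 13.20 and 13.66 in OX, against 11.39 and 11.31 in WT (4.24-fold, 2.08 ± 0.24, adjusted p = 0.0218), and its second probe set changed by 1.83 ± 0.22 (adjusted p = 0.0275). In these genes OX and WT arrays were far apart relative to the differences within a group. Of 16 called genes with several probe sets, 15 had a positive change in all of them, 5 had several called and 1, LOC4339910, had a negative one; the last was named after its values were seen.

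**Figure D2:**
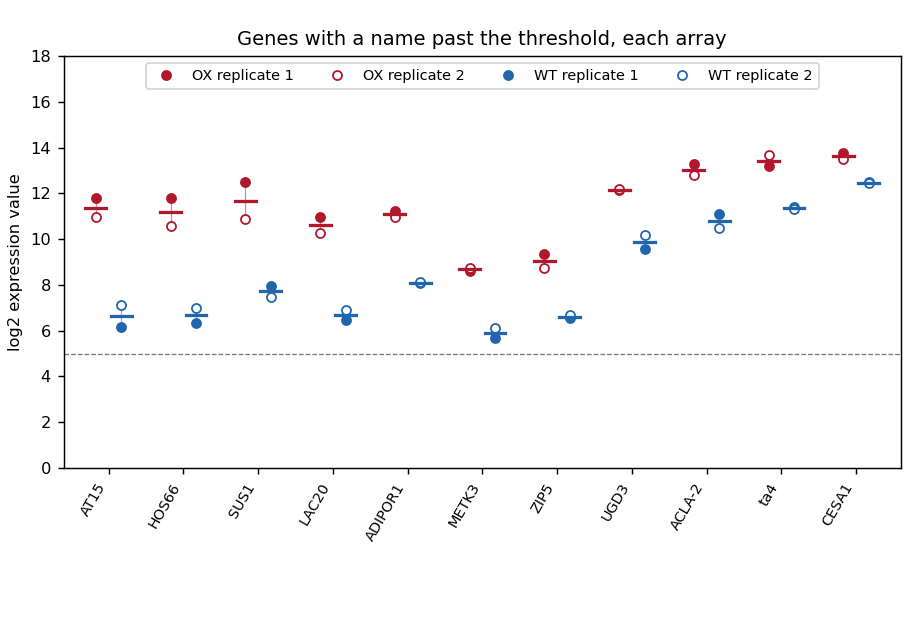
Each array's log2 expression value is shown for the 11 called genes with a name, OX in red to the left of WT in blue, with replicate 1 filled, replicate 2 open, a bar at each mean and a dashed line at log2 5. In all 11 genes both OX arrays lie above both WT arrays, from CESA1 at 13.76 and 13.51 in OX against 12.50 and 12.45 in WT to AT15 at 11.79 and 10.95 in OX against 6.18 and 7.11 in WT.

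The largest rises were those of genes known only by a locus identifier, for which no role is given. LOC4337187 had 14.52 and 13.12 in OX, against 2.09 and 4.84 in WT, and was at least 452-fold higher, counted from the floor (adjusted p = 0.0207). LOC4331398 had 11.27 and 11.93 in OX, against 1.31 and 2.75 in WT (at least 97.1-fold, adjusted p = 0.00368), and its second probe set was called too (adjusted p = 0.0308). LOC4340879 had 13.13 and 12.69 in OX, against 2.66 and 6.36 in WT (at least 241-fold, adjusted p = 0.0308). Without WT replicate 1 the bound was 93.6-fold. The second probe set of LOC4340879 did not pass, at 13.4 and 13.0 in OX and 5.89 and 6.74 in WT. Its log2 change was 6.89 ± 1.37 (adjusted p = 0.139), so the bound of 241-fold holds for the first probe set only. In each of these genes the OX value is among the brighter ones of the array, while the WT mean of the first probe set lay under the floor. LOC4336565 had 11.03 and 10.46 in OX, against 1.61 and 2.73 in WT (at least 53.5-fold, adjusted p = 0.01). LOC4331336 had 12.47 and 11.18 in OX, against 2.72 and 5.39 in WT (at least 113-fold, adjusted p = 0.0217). LOC4331117 had 12.51 and 9.69 in OX, against 3.99 and 3.9954 in WT (adjusted p = 0.0237). Its lower bound moved with the OX array left out: at least 68.6-fold with both, 25.8 without OX replicate 1 and 182 without OX replicate 2. The bounds of LOC4337187 and LOC4331336 were 278-fold and 72.4-fold without OX replicate 1, and 736-fold and 178-fold without OX replicate 2.

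Where WT was above the floor the fold itself could be measured. LOC4330227 had 14.77 and 12.85 in OX, against 6.41 and 6.37 in WT (171-fold, adjusted p = 0.0334). LOC9269584 had 14.65 and 12.52 in OX, against 6.79 and 5.61 in WT (167-fold, adjusted p = 0.0159). LOC4333623 had 14.43 and 14.15 in OX, against 5.78 and 8.22 in WT (156-fold, adjusted p = 0.011). In the first 2 the OX arrays set the uncertainty of the fold (88.0 and 79.8 without OX replicate 1, 332 and 350 without OX replicate 2), and in the last the WT arrays did (67.2 without WT replicate 1, 364 without WT replicate 2). The second probe sets of LOC9269584 and LOC4333623 were higher in OX without passing (adjusted p = 0.0745 and 0.408). The steadiest was LOC4332782, with 12.53 and 12.21 in OX, against 5.84 and 6.15 in WT. It had the smallest adjusted p of all probe sets (0.00147) and was 82.8-fold higher (log2 change 6.37 ± 0.28), between 74.2 and 92.4 with any of the 4 arrays left out.

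A few of the 91 called genes lie near each other in the gene order. How many such pairs a random set of 91 genes would hold was not worked out. LOC4338021 had 13.57 and 12.17 in OX, against 6.62 and 6.15 in WT (89.8-fold, adjusted p = 0.00436), and the nearby LOC4338023 had 13.95 and 13.19 in OX, against 8.97 and 8.74 in WT (26.3-fold, adjusted p = 0.00368). These genes have 3 others between them in the RefSeq gene order, and LOC4336613 and LOC4336616, with log2 changes of 3.62 and 3.63, likewise. With LOC4329978 and LOC9269584, which have 4 between them, they were the only 3 pairs of called genes with 4 or fewer genes between, and 0 pairs were adjacent. LOC4335562 had 12.81 and 13.22 in OX, against 7.90 and 5.74 in WT (73.4-fold, adjusted p = 0.0222). One of its other probe sets had 13.11 and 10.64 in OX, against 2.52 and 0 in WT, the largest log2 change of any called probe set (10.6 ± 1.45, adjusted p = 0.0427). LOC4332174 had 11.88 and 11.32 in OX, against 6.06 and 5.10 in WT (64.9-fold, adjusted p = 0.00436). LOC9271858 had the highest WT level of these 20 genes, at 14.50 and 13.89 in OX and 8.32 and 10.12 in WT (31.5-fold, adjusted p = 0.0273). With 1 array left out the fold of LOC4338021 was 55.4 (without OX replicate 1) to 146 (without OX replicate 2). That of LOC4335562 was 34.8 (without WT replicate 2) to 155 (without WT replicate 1), and that of LOC9271858 was 16.9 (without WT replicate 1) to 58.9 (without WT replicate 2).

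Of these 20 genes, 8 had a WT mean under the floor and 10 an OX mean of 12 or more. OX replicate 1 lay above replicate 2 in 18 of the 20. The other rises among the 20 were those of LOC4326015 and LOC4342185, at least 27.2-fold and 30.4-fold, and of LOC4324785 and LOC4323845, 35.8-fold and 24.7-fold, with adjusted p values of 0.0165, 0.0308, 0.0357 and 0.0151. Leaving out 1 of the 4 arrays moved the fold by over 1.5 times in 14 of the 30 called genes named here. The 61 other called genes, none with a name, rose by 1.14 to 4.58 on the log2 scale (median 2.76), and 2 of them had a WT mean under the floor.

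**Figure D3:**
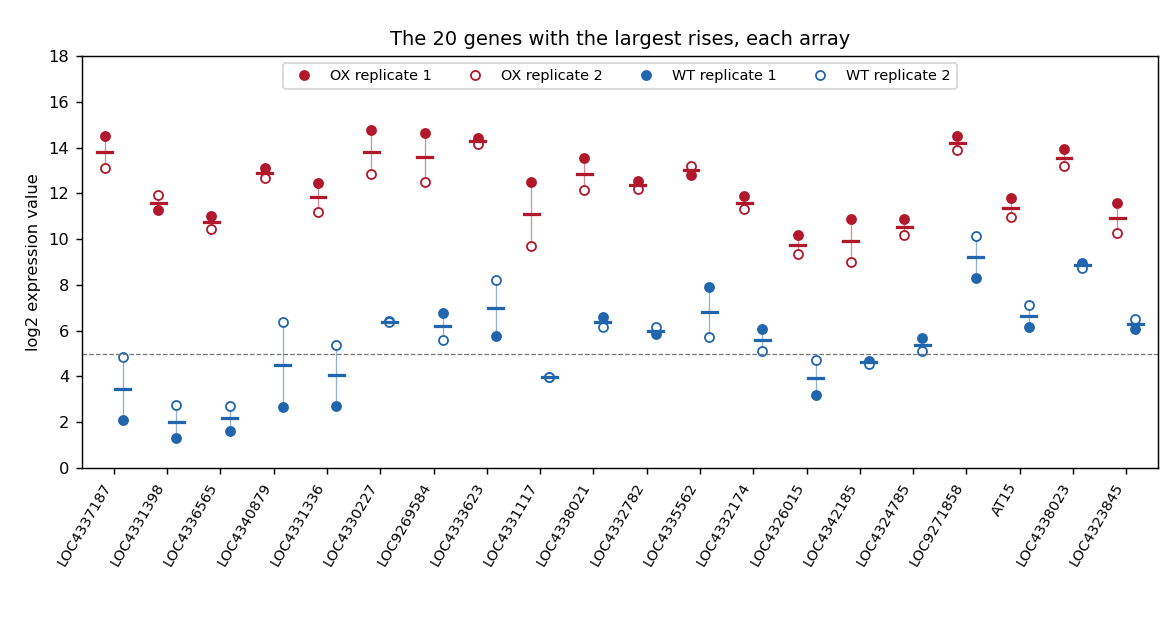
Each array's log2 expression value is shown for the 20 genes with the largest called rises, in order of the log2 change, OX in red left of WT in blue, replicate 1 filled, replicate 2 open, a bar at each mean and a dashed line at the floor of log2 5. OX values run from 8.98 to 14.77 and WT values from 1.31 to 10.12, with no overlap within a gene.

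Called probe sets with no listed gene included some of the largest differences in either direction. The largest rise among them had 11.62 and 11.71 in OX, against 3.37 and 0.83 in WT, at least 102-fold (adjusted p = 0.00436). Of the 4 probe sets called lower, the one with the largest difference had 2.30 and 3.72 in OX, against 12.02 and 12.04 in WT. A signal bright in WT was thus at least 130-fold lower in OX (adjusted p = 0.00436). The next had 5.31 and 5.17 in OX, against 12.06 and 11.76 in WT, and was 102-fold lower (adjusted p = 0.00368). The RNAi arrays, set against the same WT arrays, were low as well, with 3.19 and 2.0973 for the first and 4.48 and 3.48 for the second. The last 2 fell by 2.62 and 1.60 on the log2 scale, with adjusted p values of 0.0347 and 0.0498.

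No gene with an identifier passed as lower in this fit, where 4.49% of probe sets were lower at an unadjusted p under 0.05; the genes with the smallest p are given as values only. LOC4350020 came nearest, with 9.38 and 9.35 in OX, against 10.88 and 10.60 in WT (log2 change -1.38 ± 0.21, adjusted p = 0.0636). Its other 2 probe sets differed by less, -0.74 and -0.78 (adjusted p = 0.287 and 0.548). LOC4347709 had 8.19 and 8.61 in OX, against 12.23 and 10.93 in WT (-3.18 ± 0.50, adjusted p = 0.0682). LOC4342269 had 11.26 and 10.98 in OX, against 12.12 and 12.33 in WT (-1.11 ± 0.18, adjusted p = 0.0708). These 10 lower genes were taken only from genes with a WT mean of log2 6 or more whose groups did not overlap. Of the 10, 7 were apart by under 1.5 on the log2 scale. LOC9272124 and LOC4326803 had larger differences at lower levels, -2.54 ± 0.42 and -2.89 ± 0.50 (adjusted p = 0.0775 and 0.0876). A brighter probe set of LOC9272124 had 9.38 and 9.37 in OX, against 10.12 and 10.01 in WT, a difference of -0.69 (adjusted p = 0.352). The last 4, LOC4341658, LOC4334216, LOC4349093 and LOC4327761, differed by -1.02, -0.98, -1.43 and -0.81, with adjusted p values from 0.0828 to 0.0962.

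The lower genes with a name included 3 cytokinin genes. RR9 (LOC4349747), a response regulator that cytokinin induces and that dampens its signal, had 11.66 and 11.85 in OX, against 13.19 and 12.71 in WT (log2 change -1.19 ± 0.20, adjusted p = 0.0775). RR2 (LOC4329677), of the same class, had 10.04 and 10.31 in OX, against 11.07 and 11.01 in WT (-0.86 ± 0.17, adjusted p = 0.141). CKX11 (LOC4345764), a cytokinin oxidase, which breaks the hormone down, had 10.55 and 10.44 in OX, against 11.26 and 11.29 in WT (-0.78 ± 0.16, adjusted p = 0.156). Of 28 measured cytokinin genes 18 had a negative change, 8 had both OX arrays below both WT arrays and 3 both above, with a median of -0.18. Over all genes 25.9% had both OX arrays below both WT arrays. By this measure alone the list's share of lower genes was near that of all genes. Limma called 0 of the 28, and 6 had an unadjusted p under 0.05, all lower, against 4.48% of all genes.

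Diterpenoid phytoalexin genes, which make antimicrobial compounds of rice, had the lowest median of the 46 gene lists, -0.87 over 14 measured genes. CYP701A6 (LOC4341347) and CYP701A8 (LOC4341343) of this list were also in the list of gibberellin genes, and both are in the counts of lower genes that follow. Of the 14, 11 had a negative change, 7 had both OX arrays below both WT arrays and 1 both above. Limma called 0, and 6 were lower at an unadjusted p under 0.05. Over all genes 25.9% had both OX arrays below both WT arrays, 20.7% both above, and 4.48% were lower at that unadjusted p. CPS2 (LOC9266189), a copalyl diphosphate synthase at the start of the phytocassane branch, had 6.17 and 6.18 in OX, against 8.75 and 7.83 in WT (log2 change -2.11 ± 0.42, adjusted p = 0.137). KSL7 (LOC4329724), a synthase further along that branch, had 4.34 and 2.73 in OX, against 5.89 and 6.04 in WT (adjusted p = 0.445). KSL5 (LOC4329728) had 3.19 and 6.55 in OX, against 8.46 and 7.06 in WT (adjusted p = 0.415). The spread between replicates was wider at low levels: the median SD was 0.844 for probe sets with a mean under 6, which KSL7 had, 0.383 at 6 to 8, where CPS2 and KSL5 lie, and 0.161 at 12 and over. The median of the list was -0.32 without OX replicate 1 and -1.53 without OX replicate 2.

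The other lower genes with a name were mostly bright genes with small differences. MADS55 (LOC4340495), a MADS-box factor, had 10.30 and 10.43 in OX, against 11.26 and 11.24 in WT (log2 change -0.89 ± 0.16, adjusted p = 0.106). BGLU36 (LOC4351127), a beta-glucosidase, had 11.15 and 11.35 in OX, against 12.07 and 12.01 in WT (-0.79 ± 0.15, adjusted p = 0.128). CBL4 (LOC4339432), a calcium sensor, had 10.46 on both OX arrays, against 11.24 and 11.27 in WT (-0.79 ± 0.16, adjusted p = 0.135). In each of these 3 the replicates of a group lay much closer to each other than the groups did. ALN (LOC4337428), an allantoinase that frees nitrogen from purines, and the protein phosphatase genes PP2C39 (LOC9271405) and PP2C15 (LOC4329716) differed by -0.83, -0.71 and -0.78, with adjusted p values from 0.194 to 0.259. NAS2 (LOC4332607), a nicotianamine synthase whose product binds iron and zinc, had 4.59 and 3.88 in OX, against 6.67 and 6.55 in WT, or at least 3.04-fold lower without passing (adjusted p = 0.258).

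**Figure D4:**
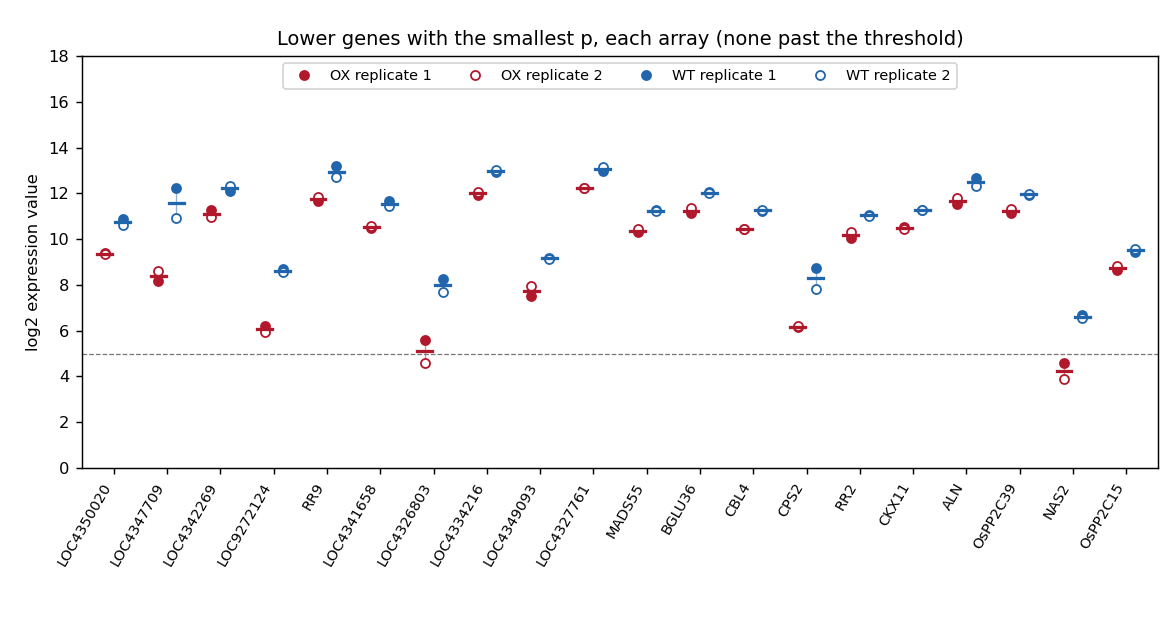
Each array's log2 expression value is shown for the 10 lower genes with the smallest p and 10 more that have a name, OX in red left of WT in blue, replicate 1 filled, replicate 2 open, a bar at each mean and a dashed line at log2 5. None passed the threshold; the differences run from -0.71 for PP2C39 to -3.18 for LOC4347709.

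Ubiquitin and proteasome genes, the machinery to which a UBA domain would bind, showed small differences. Of 35 measured, 5 had both OX arrays above both WT arrays and 12 both below, with a median of -0.11. Limma called 0, and 0 had an unadjusted p under 0.05 in either direction. RUB1 (LOC4347085), which encodes a ubiquitin-related modifier, had the smallest p, with 13.03 and 13.13 in OX, against 13.25 and 13.44 in WT (log2 change -0.27 ± 0.14, adjusted p = 0.574). RAD23 (LOC4347014), a shuttle protein that itself carries UBA domains and was picked after its values were seen, had 10.47 and 10.56 in OX, overlapping 10.55 and 11.07 in WT (adjusted p = 0.688). Photosynthesis and chlorophyll genes had a median of -0.17 over 20 genes, with 4 higher and 9 lower on both OX arrays. Over all genes these shares were 20.7% and 25.9%. Limma called 0 of the 20, and 1 was higher and 2 lower at an unadjusted p under 0.05. PSAG (LOC4337812), a photosystem I subunit, had 13.43 and 13.71 in OX, against 14.27 and 14.04 in WT (-0.58 ± 0.17, adjusted p = 0.329). PORA (LOC4337415), which reduces protochlorophyllide in the light, had 13.62 and 12.94 in OX, against 12.24 and 9.97 in WT (2.18 ± 0.75, adjusted p = 0.405).

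**Figure D5:**
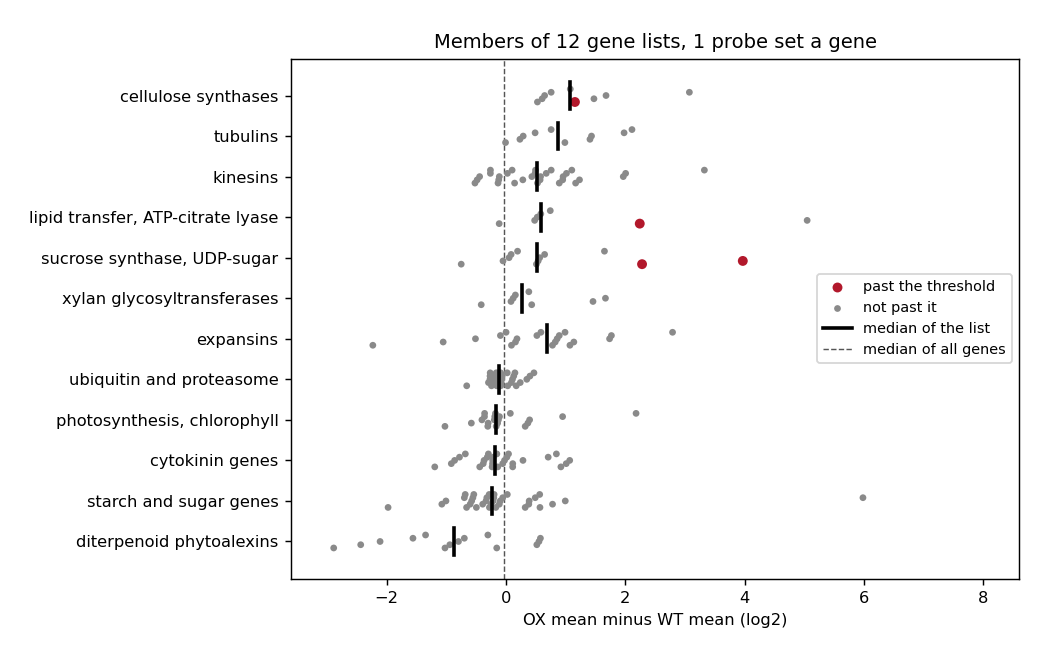
The difference between OX and WT means (horizontal axis, log2) is shown for each measured gene of 12 gene lists, with red points for called genes, grey points for the others, a black bar at the median of the list and a dashed line at the median of all genes (-0.04). Medians run from 1.08 for cellulose synthases to -0.87 for diterpenoid phytoalexin genes, and no ubiquitin or proteasome gene was called.

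Several single genes of other lists had large differences that did not pass. SWEET11 (LOC4346153), a sucrose exporter, had 10.93 and 7.29 in OX, against 2.61 and 3.64 in WT, at least 17.2-fold higher (adjusted p = 0.116), while its list of 34 starch and sugar genes had a median of -0.23, with 18 lower and 6 higher on both OX arrays. LEA19, of the late embryogenesis abundant proteins that accumulate on drying, had 10.23 and 8.93 in OX, against 2.17 and 1.68 in WT, at least 23.9-fold higher (adjusted p = 0.244). PRX74 (LOC4339222), a peroxidase, had 10.71 and 7.51 in OX, against 4.19 and 0.22 in WT (adjusted p = 0.274). In all 3 the OX replicates were more than 1 apart on the log2 scale. IAA21 (LOC4340939), an Aux/IAA repressor of auxin signalling, had 13.45 and 12.79 in OX, against 11.75 and 11.82 in WT (log2 change 1.33 ± 0.23, adjusted p = 0.0862). PDIL1-1 (LOC4350002), a protein disulfide isomerase, had 12.10 and 12.14 in OX, against 10.26 and 11.02 in WT (1.48 ± 0.25, adjusted p = 0.0803). TIP4-1 (LOC4338163), a water channel of the vacuole membrane, had 13.68 and 12.97 in OX, against 12.12 and 12.19 in WT (1.17 ± 0.24, adjusted p = 0.142). Limma called 0 members of these lists. At an unadjusted p under 0.05 it had 1 higher and 4 lower of the 34 starch and sugar genes, 5 and 1 of 18 abscisic acid genes (the list of LEA19), 8 and 6 of 71 redox enzymes (the list of PRX74 and PDIL1-1), 4 and 1 of 25 Aux/IAA genes, and 4 and 2 of 23 aquaporins. Over all genes the shares were 7.88% and 4.48%.

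Among other regulators, 4 lists had no called gene and medians close to that of all genes. Jasmonate genes had a median of -0.03 over 32 genes, protein phosphatases 2C -0.02 over 52 and heat shock genes 0.01 over 41. The list of calcium-dependent and mitogen-activated kinase genes, which also holds calcium sensors such as CBL4, had -0.08 over 62. At an unadjusted p under 0.05 limma had 3 higher and 0 lower, 3 and 3, 3 and 1, and 4 and 2 genes of these lists, in that order, near or under the shares of all genes (7.88% higher, 4.48% lower). PP2C73 (LOC4349568) stood out among the phosphatases, with 10.51 and 8.31 in OX, against 6.15 and 5.96 in WT (log2 change 3.35 ± 0.70, adjusted p = 0.156). HAK12 (LOC9270408), of a family of potassium transporters, had 8.55 and 8.30 in OX, against 7.11 and 6.77 in WT (1.49 ± 0.32, adjusted p = 0.172). CIPK10 (LOC4332786), a kinase of the calcium-sensor pathway to which CBL4 belongs, had 10.61 and 10.72 in OX, against 9.08 and 9.80 in WT (1.22 ± 0.26, adjusted p = 0.176). MADS factors leaned lower, with 9 of 19 below on both OX arrays and 1 above, at a median of -0.30. Over all genes 25.9% lay below on both OX arrays and 20.7% above.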

How the data were processed

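Per the labels, Trizol RNA was biotin-labelled and hybridised to 1-colour Affymetrix rice arrays. The authors deposited log2 expression values for 57381 probe sets. Per the submitters' processing notes these came from RMA, version not given; the values hold 329 to 614 exact zeros per array, which RMA output usually does not, so how probes were summarised is unknown. A build was not given in the sources used here. Values were used as deposited; 123 control and 64 reporter probe sets were left out.

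Each probe set was fitted with limma 3.58.1 (R 4.3.3) as 1 model of 3 group means over the 6 arrays (3 residual degrees of freedom), two-sided, with p values moderated along an intensity trend and adjusted by Benjamini-Hochberg over 37067 probe sets (threshold 0.05). The script was tested on simulated data. Precision is limited by 2 arrays a group, and detection over background was not used. Levels are log2 values per array, and changes are OX minus WT ± SE; folds against a mean under log2 5 were counted from 5. Gene names came from the array's annotation and RefSeq (ASM3414082v1); all 17905 identifiers matched.

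The members, trend, lists and alternatives were chosen with earlier results of these data known. The text names the 20 largest called rises, called genes with a name and called members of each of 46 lists. Where a list had no called member, up to 3 with the smallest p are named for most lists. Also named are 20 lower genes by p, from genes with a WT mean of log2 6 or more and no overlap. No fall with a gene was called. Members beyond these were added after their values were seen. They were CESA2 to CESA9, CSLF2, UGD4, UGE-3, LAC10, LAC7, ACLB-1, ACLA-3, LTP110-A, TUB6, KSL7, CYP701A8, RAD23, CAB2R, RBCS1 and pairs of neighbouring genes. The lipid list was narrowed then too, since some symbols had matched genes of other kinds. For a list 1 probe set per gene was used, that with the highest mean; lists were described, not tested. Replicate numbers did not pair the samples (correlation of the deviations 0.04 between OX and WT).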

Additional observations from a re-analysis of the deposited data

Results flagged for a closer look

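One result came from the reporter probe sets, which the comparison of genes left out. In 1 of 64 the OX mean lay 11.14 above the WT mean on the log2 scale, with 13.96 and 14.41 in OX and 3.12 and 2.97 in WT, at least 583-fold higher counted from log2 5. The RNAi arrays had 13.40 and 12.91. The other 63 reporter probe sets had OX means under 7.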

How the results depend on the processing

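The 129 calls became 0 without an intensity trend, 203 with only the 4 arrays compared, 202 with each array centred on its median (193 higher, 9 lower) and 84 with replicate number as a block, of which 72 were among the 129. Leaving out 1 array gave 0 to 166 calls, with 0 without OX replicate 1 and 166 without RNAi replicate 1; the causes were not tested. Other filters, quantile normalization and array weights gave 115 to 144 probe sets, within 1.5 times. A 2-fold limit could not change the 129, since every called probe set already differed by more. With the probe sets of a gene averaged, 93 of 16302 genes were called, a count of genes to set beside the 91 genes held by the called probe sets. The 30 named called genes kept their sign under all 17 alternatives; 20 stayed past the threshold with the block, and 0, 12, 6 and 9 without OX replicate 1, OX replicate 2, WT replicate 1 and WT replicate 2. Same-numbered OX and WT arrays did not deviate together (r = 0.04), so the block is no pairing from the design. Depth of signal limits the low values: 17 higher probe sets had a WT mean under log2 5.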
